A study of Mus musculus with 6 samples.

Results

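Nfkb1, Nfkb2, Rel, Relb, Nfkbia, Nfkbie, Nfkbiz, Tnfaip2, Tnfaip3 and Birc3, which encode subunits of the transcription factor NF-kB and inhibitors and feedback genes of its pathway, were followed in satellite cells of injured mouse muscle. These 10 genes were taken by name from a list, out of 54123 genes with quantified transcripts, and all 10 passed the filter for low counts that left 17084 genes. The RNA came from satellite cells, the stem cells of skeletal muscle, of adult C57BL/6 mice. The cells were sorted by fluorescence 30 h after cardiotoxin, a venom toxin that kills muscle fibres, had been injected into the tibialis anterior and gastrocnemius. Every group received this injury, so no uninjured muscle is among the libraries. There were 6 libraries, 2 per genotype. Jmjd3 KO cells were labelled as lacking JMJD3 (gene Kdm6b) and Utx KO cells as lacking UTX (gene Kdm6a), both demethylases of histone H3. Tdt control cells, called wild-type in the title of the series, were the reference. The promoter or Cre line behind the knockouts, the sorting markers and whether animals were pooled are not given in the sources used here.

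In resting cells NF-kB dimers are held in the cytoplasm by IkB proteins. Tumour necrosis factor, interleukin-1 and bacterial products activate a kinase complex that marks IkB for destruction, and the freed dimers enter the nucleus. Many of the genes they switch on are inhibitors of the same pathway, among them those of IkB proteins and of the ubiquitin-editing enzyme A20, which makes the response self-limiting. In injured muscle the pathway is best known for driving cytokine and chemokine genes.

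The libraries held 53750675 to 77675388 estimated reads. The Kdm6a transcript was at 7.68 and 7.38 CPM in Utx KO, against 32.8 and 34.0 CPM in Tdt control, where CPM are the estimated reads of a gene with the normalised library scaled to 1000000. The Kdm6b transcript was at 15.9 and 16.5 CPM in Jmjd3 KO, against 29.9 and 22.7 CPM in Tdt control, and so was lowered and not lost in the libraries labelled Jmjd3 KO (log2 fold change -0.70 ± 0.12, edgeR adjusted p = 0.0243, and from 0.123 to 0.167 without either Jmjd3 KO library). The summed CPM of 8 satellite cell markers ran from 3416 to 3744 over the 6 libraries, and those of 6 lymphoid markers stayed at or under 0.237 CPM. Separate animals behind the replicates are not stated, so the p-values describe the spread between these samples, which may be technical.

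The starts of these genes are shown first, since NF-kB binds a short kB motif and several of its inhibitors are textbook targets. RefSeq (GRCm38.p6) promoter windows, from 250 bases before to 50 bases after a gene start, were at hand for 7 of the 10 genes, with 10 windows in all. The kB consensus motif, 10 bases searched on both strands, was found in 7 of these 10 windows, belonging to 5 genes. Over all 32851 windows it was found in 4.51%, and 5.14% of 27025 genes had at least 1 window with it. The 7 windows do not all hold separate matches. Nfkb2 had more than 1 window, and those from chr19:46305445 and chr19:46305680 overlap and share the match GGGACTTTCC. A second window of Tnfaip3 (chr10:19011914-19012213) had 0 matches. The windows below are those of 2 genes that rose in Jmjd3 KO, Nfkbia (chr12:55492598-55492897, minus strand) and Tnfaip3 (chr10:19015361-19015660, minus strand), and of 2 subunit genes that did not pass the test, Nfkb2 (chr19:46304487-46304786, plus strand) and Rel (chr11:23770920-23771219, minus strand). Each is read 5′ to 3′ on the gene's strand, with the matches in capitals.
Nfkbia: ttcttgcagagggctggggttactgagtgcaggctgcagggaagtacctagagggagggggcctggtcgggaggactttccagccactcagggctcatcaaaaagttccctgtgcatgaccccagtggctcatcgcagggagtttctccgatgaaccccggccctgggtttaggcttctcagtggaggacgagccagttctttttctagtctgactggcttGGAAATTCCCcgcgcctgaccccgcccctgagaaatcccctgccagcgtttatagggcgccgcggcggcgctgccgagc
Tnfaip3: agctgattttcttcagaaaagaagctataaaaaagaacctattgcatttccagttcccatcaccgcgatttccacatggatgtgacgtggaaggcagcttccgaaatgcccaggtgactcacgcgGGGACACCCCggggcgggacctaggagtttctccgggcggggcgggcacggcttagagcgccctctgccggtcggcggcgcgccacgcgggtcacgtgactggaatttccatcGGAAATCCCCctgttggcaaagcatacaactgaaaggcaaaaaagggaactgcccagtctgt
Nfkb2: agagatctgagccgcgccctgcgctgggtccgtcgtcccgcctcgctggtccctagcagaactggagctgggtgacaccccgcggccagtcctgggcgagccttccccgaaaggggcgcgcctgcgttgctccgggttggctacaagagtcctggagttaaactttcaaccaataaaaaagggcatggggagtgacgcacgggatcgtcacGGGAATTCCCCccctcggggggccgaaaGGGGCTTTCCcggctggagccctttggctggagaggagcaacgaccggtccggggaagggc
Rel: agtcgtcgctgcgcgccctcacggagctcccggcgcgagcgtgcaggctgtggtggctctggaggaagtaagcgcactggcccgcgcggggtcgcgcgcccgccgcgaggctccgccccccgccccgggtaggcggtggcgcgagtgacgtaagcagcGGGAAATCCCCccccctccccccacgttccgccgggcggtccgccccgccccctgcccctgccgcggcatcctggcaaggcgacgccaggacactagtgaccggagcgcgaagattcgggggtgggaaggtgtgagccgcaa
In Nfkbia the match GGAAATTCCC, which reads as the motif on the opposite strand, begins 29 bases before the start. In Tnfaip3 the matches begin 125 and 12 bases before it. In the windows shown, Nfkb2 has overlapping matches that begin 39 and 38 bases before the start and another at 11. Rel has overlapping ones at 92 and 91. Nfkbie has 1 match, 106 bases before its start. In the windows of Birc3 and Tnfaip2 these letters do not occur, although both genes rose in Jmjd3 KO. The motif was therefore present in windows of genes that passed the test and of genes that did not, and a match is a run of letters and not a binding site shown in these cells.

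Per unit of transcript length, Nfkbia was the most abundant of the 10 genes in these cells, at a mean of 169.7 TPM over the 6 libraries (range 141 to 210.4), and Rel the least, at 2.38 TPM (2.11 to 2.79). TPM scale reads by transcript length and so can be compared between genes. Between them came Nfkb2 at a mean of 43.4 TPM, Nfkb1 at 41.5, Nfkbiz at 21.1, Tnfaip3 at 18.8, Birc3 at 11.2, Relb at 10.9, Nfkbie at 6.73 and Tnfaip2 at 4.63 TPM. Nfkb2 was above Nfkb1 in 4 of the 6 libraries, those of both knockouts, and below it in both Tdt control libraries. Birc3 was above Relb in 3 of 6, both Jmjd3 KO libraries and Tdt control replicate 2. The order within those pairs therefore differed between libraries. In the other neighbouring pairs the order held in 6 of 6 libraries, although the ranges of Nfkbiz and Tnfaip3, and of Nfkbie and Tnfaip2, overlapped.

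The first comparison set Jmjd3 KO against Tdt control and asked which transcripts of the pathway differ in the libraries labelled Jmjd3 KO. Of the 6 inhibitor and feedback genes, 5 (Nfkbia, Nfkbie, Tnfaip3, Birc3 and Tnfaip2) were higher in Jmjd3 KO, by 1.31-fold to 1.65-fold. None of the 4 subunit genes passed the test in edgeR with its low-count filter, with 2 of them (Nfkb2 and Relb) higher at an unadjusted p under 0.05 and 1 (Relb) called by DESeq2. Without that filter edgeR called both Nfkb2 and Relb higher (adjusted p = 0.00773 and 0.0105), so the split between subunit and feedback genes depended on the filter. That setting called more genes of every kind, 1872 of 31164 tested, against 513 of 17084 with the filter. Summed markers of neutrophils were higher in the same Jmjd3 KO libraries, as given with the other marker lists further on, and in sorted bulk samples fewer cells of a type and less RNA per cell cannot be told apart. Of the 10 genes, 5 rose and 0 fell in edgeR's quasi-likelihood test, with p adjusted by Benjamini-Hochberg across the 17084 genes and a threshold of 0.05. Among all genes tested, 1.97% rose and 1.03% fell. The median log2 fold change of the 10 genes was 0.32, against -0.00 over all genes tested. In 9 of the 10 genes both Jmjd3 KO libraries lay above both Tdt control libraries, which held for 26.2% of all genes tested. At an unadjusted p under 0.05, 7 of the 10 were higher, against 11.0% of all genes tested.

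**Figure D1:**
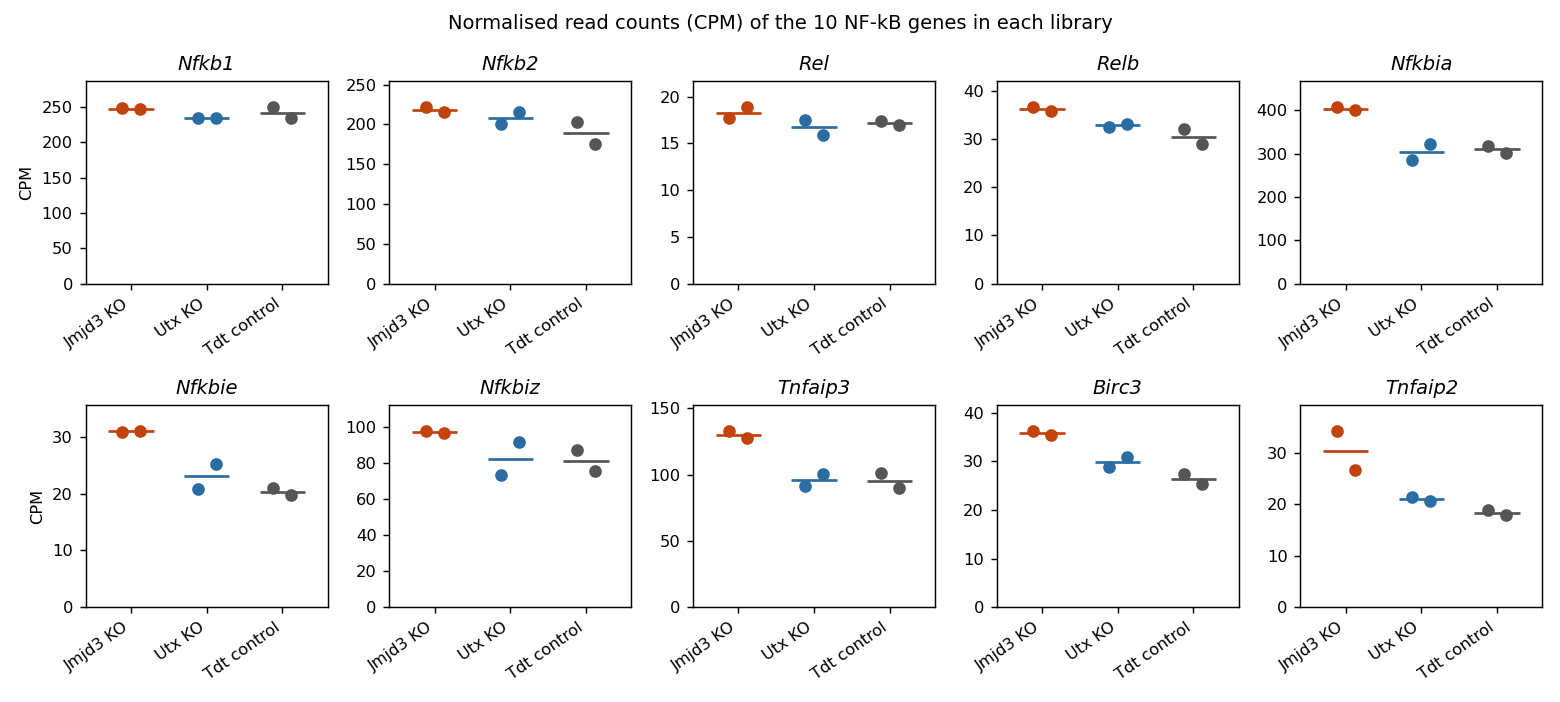
Normalised read counts (CPM, y axis from 0) of the 10 NF-kB genes, with 1 panel per gene, 1 point per library and a line at the mean of 2 libraries. The Jmjd3 KO points of Nfkbia, Nfkbie, Tnfaip3, Birc3 and Tnfaip2 lie above all points of Utx KO and Tdt control, and those of Nfkb1 lie between its Tdt control points.

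The subunit genes come first. Nfkb1 (ENSMUSG00000028163.17, chr3:135584655-135691547) encodes the precursor of a DNA-binding subunit that partners RelA. Its level was 248 and 248 CPM in Jmjd3 KO, 235 and 234 CPM in Utx KO, and 249.5 and 234 CPM in Tdt control. Its Jmjd3 KO values fell inside the control range, with a log2 fold change of 0.04 ± 0.05 (SE, 2 libraries per group; adjusted p = 0.732, 95% interval -0.08 to 0.15). Nfkb2 (ENSMUSG00000025225.15, chr19:46304320-46312385) encodes the precursor of the subunit used by the alternative branch of the pathway. It reached 221 and 216 CPM in Jmjd3 KO, 201 and 215 CPM in Utx KO, and 203 and 175 CPM in Tdt control. Both Jmjd3 KO libraries were above both controls, yet the controls differed between themselves by more than the nearest gap, and the log2 fold change of 0.21 ± 0.08 did not pass the test with the low-count filter (adjusted p = 0.178).

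Rel (ENSMUSG00000020275.9, chr11:23736847-23770970), the gene of the c-Rel subunit that is most used by lymphoid and myeloid cells, lies on the chromosome that also carries Kdm6b. It had 17.8 and 18.9 CPM in Jmjd3 KO, 17.5 and 16.0 CPM in Utx KO, and 17.4 and 16.96 CPM in Tdt control. The Jmjd3 KO libraries were the highest by a small margin, and the log2 fold change in Jmjd3 KO was 0.09 ± 0.07 (adjusted p = 0.503). Relb (ENSMUSG00000002983.17, chr7:19606217-19629438) encodes RelB, the partner of the NFKB2 product in the alternative branch. It measured 36.6 and 35.8 CPM in Jmjd3 KO, 32.6 and 33.1 CPM in Utx KO, and 32.0 and 28.9 CPM in Tdt control. The Jmjd3 KO libraries were the highest of the 6. The difference from control, 0.25 ± 0.06, missed the threshold in edgeR with the low-count filter (adjusted p = 0.0670; unadjusted p = 0.00302) and passed it in edgeR without the filter (adjusted p = 0.0105), in DESeq2 (adjusted p = 0.0386) and in the authors' deposited table (adjusted p = 0.0496).

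Of the 3 IkB protein genes, 2 rose in Jmjd3 KO. Nfkbia (ENSMUSG00000021025.8, chr12:55489410-55492647), the gene of IkB-alpha, the classical inhibitor that NF-kB itself induces, measured 406 and 402 CPM in Jmjd3 KO, 284 and 322 CPM in Utx KO, and 318 and 301 CPM in Tdt control. Both Jmjd3 KO libraries were above the other 4, and the log2 fold change from control was 0.38 ± 0.06 (adjusted p = 0.0249), a level 1.31-fold higher. Nfkbie (ENSMUSG00000023947.8, chr17:45555703-45563169), the gene of IkB-epsilon, which restrains RelA and c-Rel dimers, had 30.9 and 31.0 CPM in Jmjd3 KO, 20.9 and 25.2 CPM in Utx KO, and 20.98 and 19.7 CPM in Tdt control. The replicates of Jmjd3 KO were nearly equal and clear of the other libraries, and the gene was 1.52-fold higher than in control (0.61 ± 0.09, adjusted p = 0.0154). Nfkbiz (ENSMUSG00000035356.17, chr16:55811375-55838899) encodes IkB-zeta, a nuclear family member that acts as a co-activator of some late genes. It had 98.0 and 96.8 CPM in Jmjd3 KO, 73.3 and 91.8 CPM in Utx KO, and 87.2 and 75.6 CPM in Tdt control. The Jmjd3 KO libraries were the highest, but the spread within the other genotypes was wide, and 0.26 ± 0.11 did not pass the test (adjusted p = 0.251, 95% interval -0.00 to 0.52). Without the low-count filter Nfkbiz was called higher in Jmjd3 KO against Tdt control (adjusted p = 0.00289) and against Utx KO (adjusted p = 0.00678).

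All 3 of the remaining genes, grouped here as feedback genes, rose in Jmjd3 KO. Tnfaip3 (ENSMUSG00000019850.11, chr10:19000910-19015657) encodes A20, which edits ubiquitin chains on signalling proteins and switches the pathway off. It measured 133 and 128 CPM in Jmjd3 KO, 91.2 and 100.3 CPM in Utx KO, and 101 and 89.9 CPM in Tdt control. The Jmjd3 KO libraries were above the other 4, with a log2 fold change from control of 0.45 ± 0.08 (adjusted p = 0.0274). Birc3 (ENSMUSG00000032000.17, chr9:7848699-7873186) encodes cIAP2, a ubiquitin ligase of tumour necrosis factor receptor complexes that also protects from cell death. Its level was 36.2 and 35.3 CPM in Jmjd3 KO, 28.8 and 30.9 CPM in Utx KO, and 27.4 and 25.4 CPM in Tdt control. The 3 genotypes did not overlap, with Utx KO in the middle, and the log2 fold change from control was 0.44 ± 0.06 (adjusted p = 0.0123). Tnfaip2 (ENSMUSG00000021281.15, chr12:111442469-111455018), a gene induced by tumour necrosis factor whose protein is known for membrane protrusions, reached 34.2 and 26.7 CPM in Jmjd3 KO, 21.4 and 20.6 CPM in Utx KO, and 18.9 and 18.0 CPM in Tdt control. It had the highest fold change of the 10 genes, 1.65-fold (0.73 ± 0.11, adjusted p = 0.0171), and also the Jmjd3 KO replicates that lay farthest apart.

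The calls depended on having both libraries of each compared genotype, while the direction of the 5 called genes was the same with any library left out. With the first Jmjd3 KO replicate left out only Tnfaip2 was called (adjusted p = 0.0473), as it was with the second left out (adjusted p = 0.00657). The count was 1 without Tdt control replicate 1 (Birc3, adjusted p = 0.0325) and 0 without Tdt control replicate 2. A replicate block gave 3 genes, with Nfkbia and Tnfaip3 at adjusted p of 0.0544 and 0.0518. Transcript length offsets also gave 3, with Tnfaip2 and Tnfaip3 at 0.0545 and 0.0804. In the authors' deposited table, 6 of the 10 genes had an adjusted p under 0.05 in Jmjd3 KO, the 5 above and Relb, with log2 fold changes of 0.58 for Nfkbie, 0.56 for Tnfaip2, 0.36 for Nfkbia, 0.34 for Tnfaip3 and 0.34 for Birc3.

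The same was asked of UTX by setting Utx KO against Tdt control. None of the 10 genes passed the test in Utx KO in edgeR, and 0 did in DESeq2 and in the authors' deposited table. At an unadjusted p under 0.05 in edgeR there was 1, Birc3 (0.18 ± 0.06, unadjusted p = 0.0187, adjusted p = 0.201), against 7.66% of all genes tested that were higher at that threshold. Of all genes tested, 0.790% rose and 0.925% fell in Utx KO. The log2 fold changes ran from -0.04 for Nfkb1 to 0.19 for Tnfaip2, with a median of 0.06 against -0.00 over all genes. Nfkbia had a 95% interval of -0.18 to 0.12 around -0.03, and Tnfaip3 of -0.18 to 0.18 around 0.00. Those of Nfkbie (-0.02 to 0.38) and Tnfaip2 (-0.07 to 0.44) reach further above 0. In 3 of the 10 genes, Relb, Birc3 and Tnfaip2, both Utx KO libraries lay above both controls, against 22.3% of all genes tested.

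**Figure D2:**
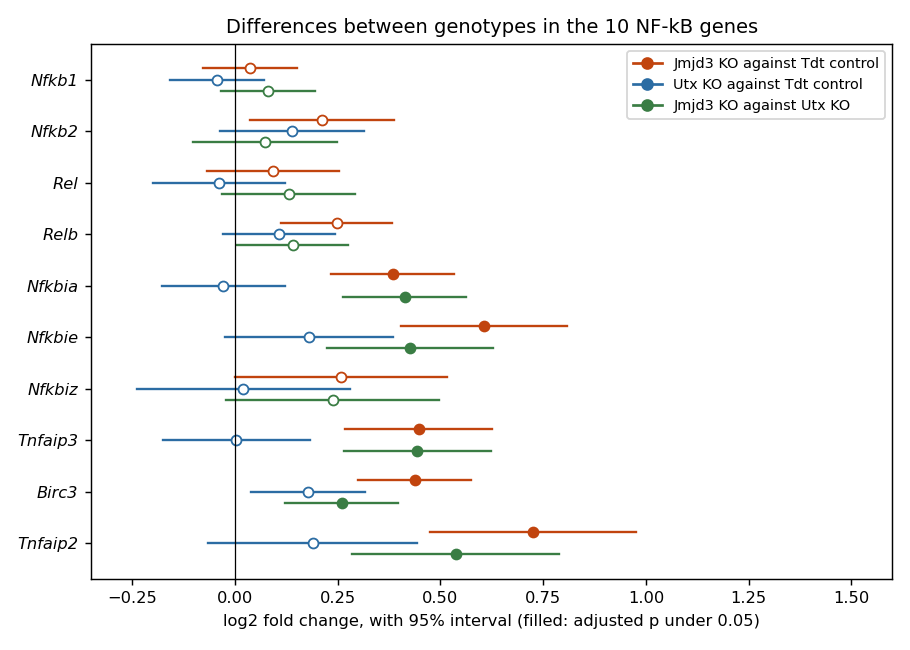
Log2 fold changes of the 10 NF-kB genes (points, x axis) with 95% intervals (lines) in the 3 comparisons, with the first-named genotype over the second, and filled points where the adjusted p was under 0.05. The 4 subunit genes have open points throughout, and Nfkbia, Nfkbie, Tnfaip3, Birc3 and Tnfaip2 have filled points in both comparisons that hold Jmjd3 KO and open ones in Utx KO against Tdt control.

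The difference between the knockouts was tested directly by setting Jmjd3 KO against Utx KO, which share the injury but no control library in that contrast. Kdm6b was at 15.9 and 16.5 CPM in Jmjd3 KO and 23.0 and 22.2 CPM in Utx KO. Its difference in this contrast narrowly missed the threshold in edgeR with the low-count filter (log2 fold change -0.48 ± 0.12, adjusted p = 0.0501). Kdm6b was called lower in Jmjd3 KO under 6 of the 13 alternative settings. Among them were DESeq2, RLE normalisation, no low-count filter and only the 4 libraries compared. The log2 fold change ran from -0.50 to -0.39 over the 13. Of the 10 genes, 5 were higher and 0 lower in Jmjd3 KO, against 5.13% higher and 2.89% lower among all genes tested. Markers of other cells moved with this contrast. Higher in Jmjd3 KO were 9 of 17 macrophage and monocyte, 3 of 13 neutrophil, 3 of 4 pan-leukocyte and 3 of 7 fibro-adipogenic markers. Of the 17 macrophage and monocyte markers, 14 had both Utx KO libraries below both Tdt control libraries. The part of these markers' cells in the result was not tested. The NF-kB genes called were Nfkbia (0.41 ± 0.06, adjusted p = 0.0116), Tnfaip3 (0.44 ± 0.08, adjusted p = 0.0169), Tnfaip2 (0.54 ± 0.11, adjusted p = 0.0260), Nfkbie (0.43 ± 0.09, adjusted p = 0.0275) and Birc3 (0.26 ± 0.06, adjusted p = 0.0397). The subunit genes had log2 fold changes of 0.07 for Nfkb2, 0.08 for Nfkb1, 0.13 for Rel and 0.14 for Relb, with adjusted p from 0.182 to 0.601. Nfkbiz had 0.24 ± 0.11 (adjusted p = 0.230). In all 10 genes both Jmjd3 KO libraries lay above both Utx KO libraries, against 28.6% of all genes tested, and 6 were higher at an unadjusted p under 0.05, against 13.7% of all genes tested. This contrast and the one with Tdt control share the Jmjd3 KO libraries. With the Jmjd3 KO replicates left out in turn the count was 0 (replicate 1) and 1 (replicate 2), and with the Utx KO replicates left out in turn it was 0 (replicate 1) and 3 (replicate 2). With a replicate block Birc3 had an adjusted p of 0.0821, and with transcript length offsets Tnfaip2 had 0.0710.

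At the level of transcripts, described without a test, the main coding transcript was higher in Jmjd3 KO in each of the 5 called genes. Nfkbia-201 held 98.3% of the TPM of its gene, at 207 and 208 TPM in Jmjd3 KO, 138 and 152 TPM in Utx KO, and 148 and 148 TPM in Tdt control. Tnfaip3-201 held 68.0%, at 17.7 and 16.5 TPM in Jmjd3 KO, 10.2 and 11.6 TPM in Utx KO, and 9.85 and 10.8 TPM in Tdt control. The next transcript of that gene, Tnfaip3-202, was at 1.39 and 2.23 TPM in Jmjd3 KO, 1.62 and 1.46 TPM in Utx KO, and 2.34 and 1.14 TPM in Tdt control, and so overlapped between genotypes. Nfkbie-201, with 88.1% of its gene, was at 7.42 and 7.78 TPM in Jmjd3 KO, 5.08 and 5.72 TPM in Utx KO, and 4.65 and 4.93 TPM in Tdt control. Tnfaip2-201, with 85.4%, was at 5.90 and 4.77 TPM in Jmjd3 KO, 3.65 and 3.40 TPM in Utx KO, and 2.94 and 3.10 TPM in Tdt control. Both repeat at the transcript level the order seen for their genes, with Jmjd3 KO highest. Birc3-201 held 68.8%, at 9.64 and 9.36 TPM in Jmjd3 KO, 7.17 and 7.48 TPM in Utx KO, and 6.41 and 6.29 TPM in Tdt control. A short processed transcript of Birc3, 360 bases long, held 15.6% and overlapped between genotypes.

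Nfkb2 was divided between coding transcripts that behaved unlike each other. Nfkb2-201 was at 26.1 and 26.2 TPM in Jmjd3 KO, 25.7 and 27.7 TPM in Utx KO, and 22.8 and 21.1 TPM in Tdt control. Nfkb2-202 was at 18.0 and 17.3 TPM in Jmjd3 KO, 13.8 and 13.5 TPM in Utx KO, and 14.2 and 13.4 TPM in Tdt control. The first was above control in all 4 knockout libraries and the second in Jmjd3 KO alone, as a description with no test. In Relb, Relb-202 was at 10.3 and 10.04 TPM in Jmjd3 KO, 7.52 and 7.98 TPM in Utx KO, and 7.89 and 7.87 TPM in Tdt control, so that its Jmjd3 KO values stood clear of the other 4 libraries. Relb-201 was at 1.56 and 1.58 TPM in Jmjd3 KO, 2.74 and 1.55 TPM in Utx KO, and 1.33 and 1.29 TPM in Tdt control, with its highest value in a Utx KO library in which Relb-202 held 70.1% of the gene. Estimated reads split between transcripts that share exons are less certain than their sum.

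The rest of the pathway was described from 95 genes in 6 lists by role, of which 92 were tested. In Jmjd3 KO 14 of the 92 rose and 0 fell, against 1.97% and 1.03% of all genes tested. Ligands, of which 1 of 8 tested rose, had a median log2 fold change of 0.48, and targets, of which 9 of 30 rose, one of 0.42. Receptors and adaptors had 2 of 23 higher and a median of 0.12. Other subunits and IkB proteins had 1 of 6 higher and a median of 0.14, and other negative regulators 1 of 14 and a median of 0.06. Kinases had 0 of 11 called in edgeR, with 1 higher and 1 lower at an unadjusted p under 0.05, and a median of -0.03. In Utx KO 2 targets rose and 1 fell of the 92 genes, against 0.790% and 0.925% of all genes tested, and the medians of the 6 lists ran from -0.11 to 0.04. In Jmjd3 KO against Utx KO 23 of the 92 were higher and 1 lower, against 5.13% and 2.89% of all genes tested. These counts moved with single libraries. In Jmjd3 KO against Tdt control, called targets numbered 4 with the first Jmjd3 KO library left out and 5 with the first control left out. Called receptors and adaptors numbered 0 without Jmjd3 KO replicate 1 or either control and 1 without Jmjd3 KO replicate 2, and ligands 0 without either Jmjd3 KO library or Tdt control replicate 1. In Utx KO against Tdt control, called targets numbered 1 without either Jmjd3 KO library and 0 without any 1 of the other 4. In Jmjd3 KO against Utx KO, called targets numbered 4 to 6, receptors and adaptors 0 to 1 and ligands 0 to 2 with any 1 of the 4 compared libraries left out.

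**Figure D3:**
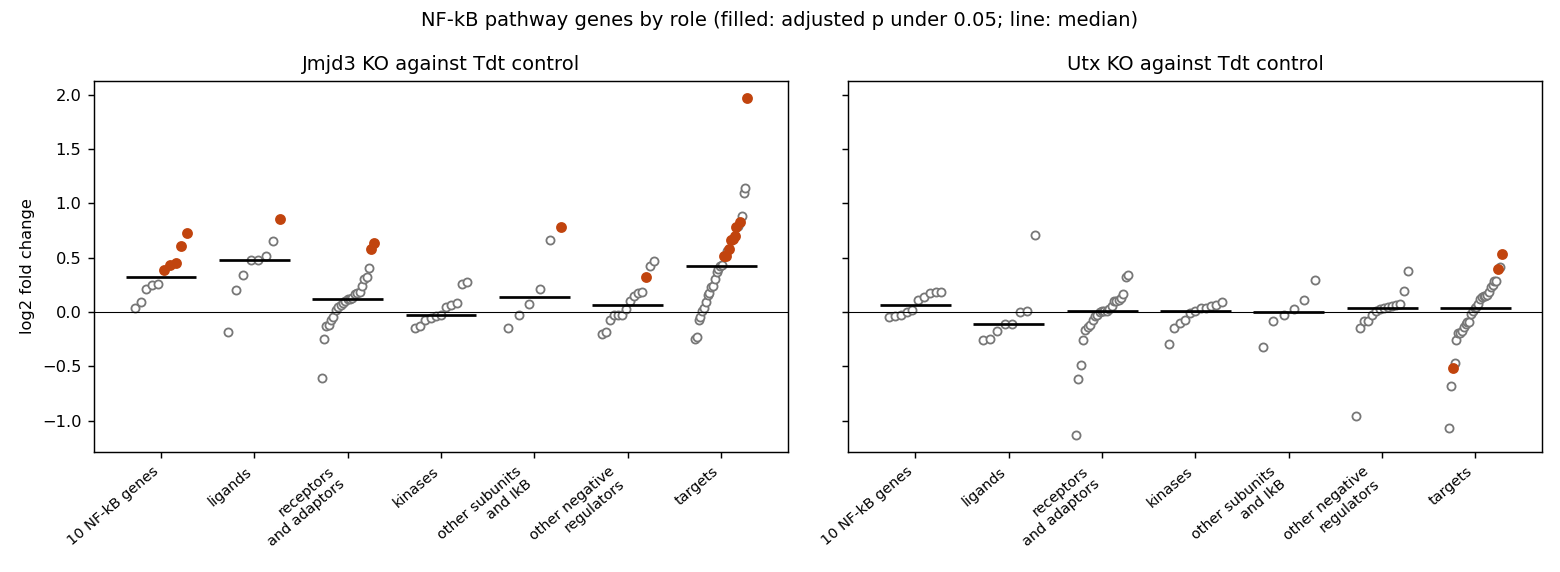
Log2 fold changes (y axis) of the 10 NF-kB genes and of 6 lists of other pathway genes by role, in Jmjd3 KO and in Utx KO against Tdt control, with 1 point per gene, filled where the adjusted p was under 0.05, and a line at each median. Filled points in Jmjd3 KO all lie above 0 and include 9 targets and none of the 11 kinases.

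Among the ligands Il1a, the gene of interleukin-1 alpha, was at 6.92 and 7.15 CPM in Jmjd3 KO, 3.83 and 3.38 CPM in Utx KO, and 3.41 and 4.39 CPM in Tdt control (0.85 ± 0.14 against control, adjusted p = 0.0223). Il1a was not called with either Jmjd3 KO library or the first control left out (adjusted p from 0.0834 to 0.133). Of the receptors and adaptors, Irak2, a kinase-like adaptor of interleukin-1 and Toll-like receptors (0.63 ± 0.10, adjusted p = 0.0217), and Tnfrsf1b, the second tumour necrosis factor receptor (0.58 ± 0.10, adjusted p = 0.0269), rose in Jmjd3 KO. The call of Irak2 was lost without any 1 of the 4 libraries compared (adjusted p from 0.0601 to 0.155), and Tnfrsf1b without Jmjd3 KO replicate 1 and without either control (adjusted p from 0.0770 to 0.127).

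Of the other subunit and IkB genes, Bcl3, a nuclear IkB protein that works with NF-kB dimers, rose in Jmjd3 KO. It was at 24.3 and 27.5 CPM in Jmjd3 KO, 18.9 and 17.9 CPM in Utx KO, and 15.4 and 14.6 CPM in Tdt control (0.78 ± 0.07 in Jmjd3 KO against control, adjusted p = 0.00327), and it was called under all 13 alternatives. Rela, the main activating subunit, measured 43.5 and 42.4 CPM in Jmjd3 KO, 43.5 and 39.8 CPM in Utx KO, and 42.8 and 39.0 CPM in Tdt control, and its groups overlapped. Tnip1, which encodes a partner of A20, was the 1 of 14 other negative regulators that rose in Jmjd3 KO (0.32 ± 0.05, adjusted p = 0.0223). Tnip1 lost the call without any 1 of the 4 libraries compared (adjusted p from 0.0750 to 0.198) and with a replicate block.

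The targets with the smallest p in Jmjd3 KO were Ier3, a stress-induced survival gene (0.83 ± 0.06, adjusted p = 9.16e-04), Csf2, a colony-stimulating factor of myeloid cells (1.97 ± 0.19, adjusted p = 0.00340), Ccl2, a monocyte attractant (0.67 ± 0.07, adjusted p = 0.00446), and Ptx3, a secreted pattern-recognition protein (0.70 ± 0.08, adjusted p = 0.00469). These 4 targets were called in Jmjd3 KO under all 13 alternatives. Csf2 was at 5.93 and 5.42 CPM in Jmjd3 KO, 0.986 and 1.105 CPM in Utx KO, and 1.71 and 1.17 CPM in Tdt control, so its large fold rests on low levels. In Utx KO, Cxcl1, a neutrophil attractant (0.54 ± 0.07, adjusted p = 0.0213), and Ier3 (0.39 ± 0.06, adjusted p = 0.0283) rose and Ccl7, another monocyte attractant (-0.52 ± 0.10, adjusted p = 0.0463), fell. Ier3 and Ccl7 lost the call in Utx KO without any 1 of the 6 libraries and with a replicate block. Ccl7 also lost it with only the 4 libraries compared and with transcript length offsets. Cxcl1 lost it without any 1 of the 4 libraries compared. With a library left out, the log2 fold changes in Utx KO ran from 0.35 to 0.45 for Ier3, -0.65 to -0.37 for Ccl7 and 0.44 to 0.63 for Cxcl1.

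Markers of leukocytes moved with the same comparison. The summed CPM of 15 neutrophil markers were 323 and 249.8 in Jmjd3 KO, 216 and 244 in Utx KO, and 161 and 175 in Tdt control, and of the 13 tested 6 rose in Jmjd3 KO and 1 in Utx KO, against 1.97% and 0.790% of all genes tested. The 6 were Hdc (log2 fold change 1.12), S100a9 (0.95), Il1r2 (0.84), Clec4d (0.71), Mxd1 (0.71) and Csf3r (0.68), of which Hdc also rose in Utx KO (0.79). Of the 13, 11 had a log2 fold change above 0 in Jmjd3 KO. Ngp had -2.38 and Ltf -0.32 in Jmjd3 KO, and neither passed the test in edgeR (adjusted p = 0.0526 and 0.687). Of the untested neutrophil markers, Ly6g stayed at or under 0.0930 CPM in every library and Camp was at 0 in both Jmjd3 KO libraries. The 17 macrophage and monocyte markers summed to 359 and 328 CPM in Jmjd3 KO, 214 and 252 CPM in Utx KO, and 243 and 291 CPM in Tdt control. Of these 17, 2 rose in Jmjd3 KO against control, and 9 against Utx KO, where 5.13% of all genes tested were higher. The 2 were Cd14 (log2 fold change 0.72) and Tyrobp (0.56). Cd14 alone was at 132 and 106 CPM in Jmjd3 KO and 68.9 and 74.9 CPM in Tdt control. Against control, 13 of the 17 had a log2 fold change above 0. Those of Adgre1 (-0.16), C1qc (-0.13), Fcgr1 (-0.21) and Ccr2 (-0.30) were below 0. In Utx KO, 14 of the 17 had both libraries below both controls and 1 had both above, against 3982 and 3814 of all 17084 genes tested. In edgeR 11 of the 17 were lower in Utx KO at an unadjusted p under 0.05 and 0 higher. Fcgr1 was called lower (-0.79, adjusted p = 0.0430). The difference between the knockouts in these markers thus holds lower values in Utx KO as well. The 4 pan-leukocyte markers summed to 76.7 and 63.2 CPM in Jmjd3 KO, 46.7 and 48.6 CPM in Utx KO, and 54.6 and 58.1 CPM in Tdt control, with 0 of 4 called by edgeR against control (2 higher at an unadjusted p under 0.05) and 3 of 4 higher against Utx KO. Fibro-adipogenic markers summed to 179.7 and 165 CPM in Jmjd3 KO, 109.6 and 136 CPM in Utx KO, and 136 and 152 CPM in Tdt control, with 3 of 7 higher in Jmjd3 KO against Utx KO. In Utx KO against control, 0 of 4 pan-leukocyte and 0 of 7 fibro-adipogenic markers were called by edgeR. At an unadjusted p under 0.05, 2 pan-leukocyte markers were lower and 0 higher, and 4 fibro-adipogenic markers lower and 1 higher. Endothelial markers ran from 42.4 to 59.4 CPM, with Jmjd3 KO and Tdt control overlapping and Utx KO lowest. Of the 8 satellite cell markers, Des rose (log2 fold change 0.35) and Myod1 fell (-0.22) in Jmjd3 KO against control, and 6 were not called. Des was at 1377 and 1425 CPM in Jmjd3 KO, 1062 and 1096 CPM in Utx KO, and 1091 and 1112 CPM in Tdt control. Both Jmjd3 KO libraries lay above both controls in 3 of the 8 markers and below both in 2. The neutrophil, macrophage and monocyte, pan-leukocyte and fibro-adipogenic sums were highest in both Jmjd3 KO libraries, as were the 5 called NF-kB genes. So was the satellite cell sum, but its order rested on Des and was not shared by the satellite cell markers as a group. The neutrophil sum was also above control in both Utx KO libraries, but its markers did not all move that way. At an unadjusted p under 0.05 in edgeR, 8 of the 13 tested were higher in Utx KO. At the same threshold 3 were lower, Ngp (log2 fold change -2.89), Ltf (-1.10) and Trem1 (-0.32). The part of other cells in the higher inhibitor and feedback transcripts was not tested.

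**Figure D4:**
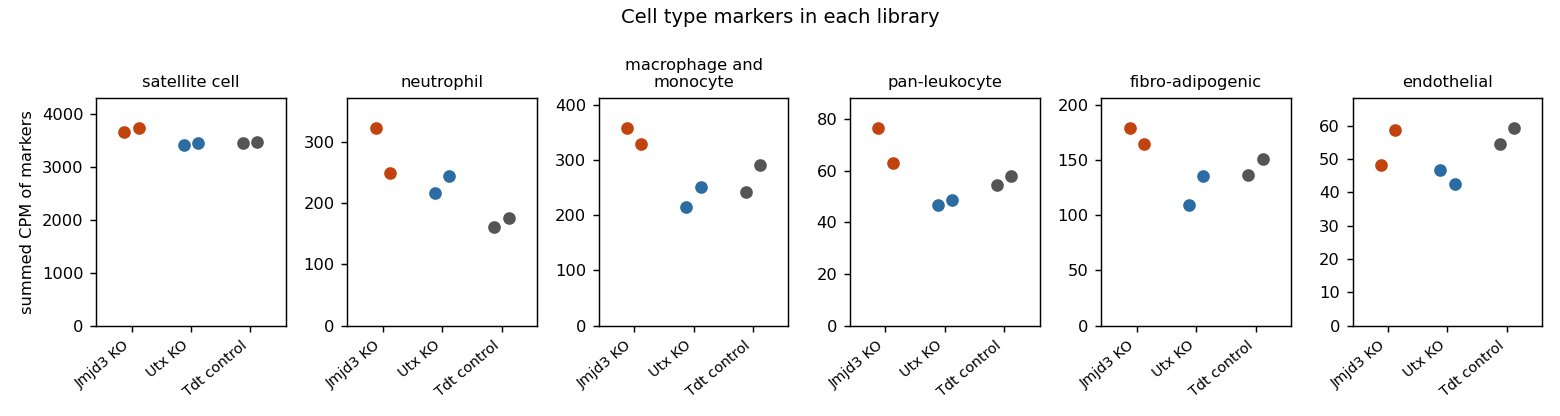
Summed CPM (y axis from 0) of marker genes in 6 lists, with 1 point per library. The neutrophil points of Jmjd3 KO and Utx KO lie above those of Tdt control, and the satellite cell points run from 3416 to 3744 CPM.

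The genes whose profile over the 6 libraries was most like the mean standardised log2 CPM of the 10 genes were Amdhd2 (Pearson r = 0.997), Brap (0.989), Smpd1 (0.989), Alkbh5 (0.989) and Crybg1 (0.988). They were chosen for the highest r among 10052 genes of at least 5 CPM outside the lists, of which 91 had an r over 0.95. Crybg1 was at 29.9 and 30.4 CPM in Jmjd3 KO, 24.1 and 24.1 CPM in Utx KO, and 24.7 and 21.3 CPM in Tdt control. The 6 points are the same libraries for all genes, and the r is a description.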

How the data were processed

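Salmon-type tables for 6 libraries list transcripts, and their columns, per the file headers, are TPM, estimated counts and effective lengths. Names in the submitters' processing notes are cutadapt 2.6, Salmon 1.1.0 and DESeq2 1.28.1, with the builds mm10 and GRCm38 and no stated roles. The authors' deposited tables of each knockout against control hold a mean signal per gene, log2 fold changes and p-values, raw and adjusted. Shrinkage of those fold changes is not stated.

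Estimated counts were summed per gene by GENCODE M21 (GRCm38) and rounded to whole numbers. Of 140748 transcripts, 139448 matched by versioned identifier, 416 matched after the version was dropped and 884 stayed unmatched. One model across genotypes, with every library in it, was fitted in edgeR 4.0.16 under R 4.3.3 after TMM normalisation and edgeR's own filter for low counts. Standard errors are the log2 fold change divided by the square root of F, and 95% intervals follow from them. The procedure was tested on simulated data. The 13 alternatives were DESeq2 1.42.0, RLE normalisation, every gene with a read, a stricter filter (5 CPM in 2 libraries), only the compared libraries, a replicate block, transcript length offsets and leaving out each library.

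All 10 genes were named, and up to 4 called genes of smallest p per pathway list in each knockout against control. Rela and genes named only for markers were added after their values were seen. The 10 genes and all lists were chosen with earlier results of these data known, so no list was tested as a set.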

Additional observations from a re-analysis of the deposited data

How the results depend on the processing

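With 2 libraries per genotype, the calls are sensitive to each library and directions less so. The number of the 10 NF-kB genes higher in Jmjd3 KO against Tdt control was 5; it was 8 with no low-count filter (Nfkb2, Relb and Nfkbiz added), 3 with a replicate block and 3 with transcript length offsets, and ran from 0 to 5 with each library left out. In Jmjd3 KO against Utx KO it was 5, and 0 to 5 with each library left out. None of the 10 was called lower in any comparison, nor higher in Utx KO against Tdt control, under any of the 13 alternatives.

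The count over all genes in Jmjd3 KO against Tdt control was 513. It was 1041 with DESeq2, 1872 with no low-count filter, 322 with a replicate block, 330 with transcript length offsets, and 113 to 434 with a library left out. In Utx KO against Tdt control it was 293. It was 658 with DESeq2, 1399 with no filter, 119 with the 4 libraries alone, 133 with the replicate block, 131 with length offsets, and 16 to 96 with a library left out. In Jmjd3 KO against Utx KO it was 1370. It was 2856 with no filter, 790 with length offsets and 291 to 1387 with a library left out.

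Some uncalled genes changed sign. In Utx KO, Tnfaip3 had a log2 fold change of 0.00335, with -0.00251 under the filter of 5 CPM and -0.0453 with length offsets, and -0.0713 to 0.0913 with a library left out. With a library left out, Utx KO values ran from -0.0807 to 0.00185 for Nfkb1, -0.11 to 0.0280 for Rel, -0.12 to 0.0581 for Nfkbia, -0.15 to 0.17 for Nfkbiz and -0.28 to 0.0890 for Il1a, and Nfkb1 in Jmjd3 KO from -0.000850 to 0.0817. Cxcl1 in Jmjd3 KO against Utx KO ran from -0.0517 to 0.13. Kdm6a in Jmjd3 KO was -0.09, and 0.11 with length offsets.

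The titles number the replicates in each genotype, but differences between replicates 1 and 2 were uncorrelated across genotypes (r from -0.05 to -0.01 over genes), so the numbers were not taken to pair the samples; the replicate block ended the calls of Nfkbia and Tnfaip3 in Jmjd3 KO against Tdt control, of Tnip1 in the same comparison, of Birc3 in Jmjd3 KO against Utx KO, and of Ier3 and Ccl7 in Utx KO. The cause of the differences between settings was not tested.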
